A study of Mus musculus with 25 samples.

Results

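Fas and the extrinsic apoptosis machinery were followed as 8 genes, chosen by name: the death receptors Fas, Tnfrsf1a and Tnfrsf10b, the adaptor Fadd, the kinase Ripk1, the initiator caspase gene Casp8, its inhibitor Cflar, and Bid. All 8 were listed among the 47729 genes of the bulk table and among the 31053 features of the single-cell matrices, and all 8 were among the 15773 bulk genes with enough reads to be tested. Every mouse, naive mice included, was Col1a1-Cre-ERT2;Fas fl/fl, so that tamoxifen lets a Cre recombinase driven by the Col1a1 promoter remove exon 9 of Fas. Mice called Fas-/- received tamoxifen in corn oil and mice called Fas+/+ received corn oil alone, by intraperitoneal injection in the first weeks after intratracheal bleomycin, which injures the lung and brings on fibrosis. Recombination of Fas and exposure to tamoxifen therefore cannot be told apart, and the Fas+/+ mice still carry the floxed allele. The cells were Lin- lung cells, which means that they were sorted as negative for CD45 (leukocytes), CD31 (endothelium) and CD326 (epithelium), and the labels call them fibroblasts. Bulk RNA-seq held 20 libraries in 5 groups of 4: naive, Fas+/+ and Fas-/- at 3 weeks after bleomycin, and Fas+/+ and Fas-/- at 6 weeks. Single-cell RNA-seq held 5 libraries, 1 for each condition, each from pooled mice. The study's methods give n as individual animals, but the labels tie no bulk library to a mouse. The p-values therefore measure the spread between libraries within groups, which the main fit estimated over all 5 groups together. Ages are not given in the sources used here.

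The extrinsic pathway starts when a ligand of the TNF family binds a death receptor at the cell surface. Fas is bound by Fas ligand, Tnfrsf1a (TNF receptor 1) by TNF, and Tnfrsf10b, the mouse TRAIL receptor, by TRAIL, which Tnfsf10 encodes. Fas and the TRAIL receptor bind Fadd through paired death domains, and Fadd draws in caspase-8. TNF receptor 1 first builds a complex around Ripk1 that favors survival, from which Fadd and caspase-8 can be engaged later. Cflar encodes cFLIP, a caspase-8 look-alike without full protease activity that holds the enzyme in check. Active caspase-8 starts a protease cascade and also cuts Bid, whose fragment moves to mitochondria and opens the intrinsic arm. Fibroblasts are known to resist Fas-induced death unless they are sensitized.

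The 8 genes lie on 6 chromosomes of GRCm38. Fas (ENSMUSG00000024778) lies on chromosome 19 from 34290666 to 34327772 on the plus strand. Cflar (chromosome 1, from 58711508 to 58758884) and Casp8 (chromosome 1, from 58795374 to 58847503) are neighbors on the same strand, 36489 bases apart. Bid (120891930 to 120916853) and Tnfrsf1a (125349362 to 125362484) share chromosome 6. Fadd lies on chromosome 7 from 144577318 to 144582463, Ripk1 on chromosome 13 from 34002363 to 34037147, and Tnfrsf10b on chromosome 14 from 69767472 to 69784411. The counts in the files are sums over whole genes, so that no exon of Fas is seen by itself. In the reference transcript Fas-201 of the GENCODE annotation, exon 9 runs from 34326993 to 34327772 and makes up 780 of the 1481 bases, or 52.7% of the transcript. It is the last exon, and 3 of the 5 annotated Fas transcripts end in it. It encodes the death domain, the part of the receptor that binds Fadd. The end of its coding part, on the plus strand at chr19:34327025-34327324, is shown because it is the stretch that recombination takes away, and capitals mark the stop codon.
Fas exon 9, end of the coding part: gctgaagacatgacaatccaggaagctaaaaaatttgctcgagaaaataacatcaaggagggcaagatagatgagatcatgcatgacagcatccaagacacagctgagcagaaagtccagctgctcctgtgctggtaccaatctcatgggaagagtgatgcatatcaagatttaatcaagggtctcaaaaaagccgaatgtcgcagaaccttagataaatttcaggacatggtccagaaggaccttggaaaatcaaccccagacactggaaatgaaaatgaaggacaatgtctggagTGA
The bulk libraries were made from poly-A RNA, per the study's methods. A Fas transcript without exon 9 would be counted there by its other exons only if it still carried a poly-A tail. Whether such a transcript does was not tested. It would be counted over fewer bases, since exon 9 is 52.7% of Fas-201, so that loss of the exon could also lower the bulk count. The single-cell libraries were primed with oligo-dT beads, from the poly-A end of a transcript, where exon 9 lies in Fas-201. In them a loss of exon 9 and a lower level of Fas cannot be told apart.

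Total bulk counts ran from 11819700 to 25189096 a library, and levels are given as CPM, the count scaled to a common library size with the factors of the trimmed mean of M values (TMM). Endothelial cells, which the CD31 gate should remove, were represented unevenly in the bulk libraries. The sum over 9 endothelial markers ran from 175 to 490 CPM in the naive group, from 2854 to 11057 CPM (Fas+/+) and 705 to 9658 CPM (Fas-/-) at 3 weeks, and from 508 to 1990 CPM (Fas+/+) and 120 to 3088 CPM (Fas-/-) at 6 weeks. All 9 markers were called higher in Fas+/+ mice at 3 weeks than in naive mice and 8 of 9 in Fas-/- mice, and at 6 weeks 0 of 9 were called by edgeR in either genotype, with 8 and 6 of 9 at an unadjusted p under 0.05. Leukocyte markers were sparse (2.86 to 137 CPM summed over 10 genes), at 2.86 to 4.78 CPM in the naive group. At 3 weeks they were at 51.1 to 71.7 CPM (Fas+/+) and 29.8 to 137 CPM (Fas-/-). Epithelial markers summed to 49.2 to 1557 CPM over 9 genes. At 6 weeks they did not overlap between genotypes, at 560 to 1557 CPM (Fas+/+) and 139 to 419 CPM (Fas-/-). Erythroid markers summed to 2979 to 9589 CPM over 5 genes in the naive group and to 17.1 to 235 CPM after bleomycin. The part of these differences in the comparisons was not tested. Ptprc, which encodes CD45, was at 0.0431 to 4.37 CPM over the 20 libraries. In whole libraries of mixed cells, fewer cells of a type and less RNA per cell cannot be told apart.

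Per length of merged exons, the receptor for TNF was by far the most abundant member in all 5 groups, and the TRAIL receptor and Bid were the least abundant in naive mice and at 6 weeks. In naive mice Tnfrsf1a was at 78.5 ± 5.53 CPM per kilobase (SD, n = 4), Cflar at 14.2 ± 0.689, and Fas at 10.7 ± 0.608. Ripk1 followed at 4.00 ± 0.114 CPM per kilobase, Casp8 at 3.65 ± 0.407, Fadd at 2.77 ± 0.322, Tnfrsf10b at 0.712 ± 0.112 and Bid at 0.427 ± 0.0861. Ripk1 and Casp8 overlapped in naive mice, and the other neighbors in this order did not. The order depends on the merged lengths, which were 12.669 kilobases over 13 transcripts for Cflar and 2.062 kilobases over 5 transcripts for Fas. Before division by length, Cflar was at 180 CPM and Fas at 22.1 CPM in naive mice. At 3 weeks in Fas+/+ mice Fas, at 19.9 ± 5.48 CPM per kilobase, had passed Cflar, at 13.5 ± 2.20, although their libraries overlapped slightly (16.5 to 27.98 for Fas and 11.8 to 16.6 for Cflar), and Casp8, at 9.92 ± 1.37, stood above Ripk1, at 5.23 ± 0.332. At 3 weeks Tnfrsf10b, at 4.00 ± 0.136 in Fas+/+ and 3.40 ± 2.60 in Fas-/- mice, had a higher mean than Fadd, at 3.71 ± 0.434 and 3.11 ± 0.588, and their libraries overlapped.

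At 3 weeks after bleomycin the bulk levels of the receptors, the caspase, Bid and the kinase were higher than in naive mice in both genotypes, and that of Cflar was not. These are levels over all cells of a library and do not show a change within any type of cell. In Fas+/+ mice 7 of the 8 genes were called higher (edgeR quasi-likelihood test, adjusted p of at most 0.05 over all genes tested), with a median log2 fold change of 0.78, where 22.1% of all tested genes were called higher and 19.2% lower. In Fas-/- mice 6 of 8 were called higher, with a median of 0.79, against 17.2% of all tested genes higher and 14.8% lower. The median over all tested genes was 0.01 and 0.02. The groups at 3 weeks and naive did not overlap for 6 of the 8 genes in either genotype, where 32.2% (Fas+/+) and 31.1% (Fas-/-) of all tested genes did not overlap. Both comparisons use the same 4 naive libraries.

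Among the receptors, Fas was at 23.9, 21.1, 21.9 and 21.4 CPM in the 4 naive libraries. It was at 57.7, 33.97, 34.1 and 38.4 CPM in Fas+/+ and at 42.3, 35.4, 34.4 and 64.9 CPM in Fas-/- mice at 3 weeks. Every library at 3 weeks lay above every naive library in both genotypes, and 1 library of each genotype stood well above the rest. The log2 fold change from naive was 0.90 ± 0.199 (SE) in Fas+/+ mice and 1.00 ± 0.199 in Fas-/- mice (edgeR quasi-likelihood test, adjusted p = 0.00183 and 0.00126). The high libraries, replicate 1 of the Fas+/+ and replicate 4 of the Fas-/- mice, were also the highest of their groups in endothelial markers, at 11057 and 9658 CPM. With the library highest in these markers left out of each group after bleomycin, the change was 0.68 and 0.75 and was still called. The remaining libraries at 3 weeks, at 2854 to 3708 CPM (Fas+/+) and 705 to 1259 CPM (Fas-/-), still lay above the naive 175 to 490 CPM. The change and the endothelial content therefore cannot be told apart by this fit, which also holds for the genes below at 3 weeks.

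Tnfrsf1a was at 190, 215, 191 and 217 CPM in naive libraries, at 301, 313, 353 and 320 CPM in Fas+/+ and at 289, 305, 283 and 344 CPM in Fas-/- mice at 3 weeks. Neither group at 3 weeks overlapped with the naive group. The change was 0.66 ± 0.0806 on the log2 scale in Fas+/+ and 0.59 ± 0.0805 in Fas-/- mice (edgeR quasi-likelihood test, adjusted p = 1.09e-05 and 6.55e-05).

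Tnfrsf10b had the largest change of the 8 genes. Its 4 naive libraries were at 3.40, 4.71, 3.44 and 3.98 CPM and its Fas+/+ libraries at 3 weeks at 22.03, 20.8, 21.9 and 22.5 CPM. In Fas-/- mice at 3 weeks 3 libraries lay at 11.6, 11.4 and 11.3 CPM and the remaining one, replicate 4, at 39.8 CPM. The Fas+/+ libraries were tight and every Fas-/- library but 1 lay below them, while all 8 lay above the naive group. The log2 fold change was 2.48 ± 0.413 in Fas+/+ and 2.25 ± 0.410 in Fas-/- mice (edgeR quasi-likelihood test, adjusted p = 0.000185 and 0.000667). Left without the libraries highest in endothelial markers, the values became 2.47 and 1.54, both called.

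Below the receptors, the adaptor Fadd was called in 1 genotype. Its libraries were at 10.9, 12.5, 9.93 and 9.83 CPM in naive mice, at 14.1, 14.9, 16.5 and 12.4 CPM in Fas+/+ and at 13.9, 11.3, 9.25 and 14.01 CPM in Fas-/- mice at 3 weeks. All these groups overlapped. Its call in Fas+/+ mice was marginal (log2 fold change 0.42 ± 0.164, edgeR quasi-likelihood test, adjusted p = 0.0483), and the two-sided exact permutation test gave p = 0.0571, where the smallest p that 4 against 4 libraries allow is 0.0286. The call was lost without any 1 of 6 libraries, replicates 1, 2 and 3 of the Fas+/+ group and replicates 1, 3 and 4 of the naive group, and without a filter on low counts. In Fas-/- mice Fadd was at 0.17 ± 0.163 and was not called by the same edgeR test (adjusted p = 0.468).

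Ripk1 moved little in size but evenly. It was at 32.6, 32.6, 33.6 and 34.6 CPM in naive libraries, at 41.7, 41.3, 44.1 and 47.3 CPM in Fas+/+ and at 45.8, 43.7, 41.5 and 42.5 CPM in Fas-/- mice at 3 weeks. No library at 3 weeks reached down to the naive range. The log2 fold change was 0.39 ± 0.0739 and 0.38 ± 0.0738 (edgeR quasi-likelihood test, adjusted p = 0.000602 and 0.00112).

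Casp8 was at 9.69, 10.1, 10.1 and 12.3 CPM in naive libraries. At 3 weeks it was at 34.3, 26.7, 28.4 and 25.4 CPM in Fas+/+ and at 22.1, 18.8, 20.7 and 35.2 CPM in Fas-/- mice. The lowest library at 3 weeks was thus above the highest naive one, and the highest library of each genotype was again the one highest in endothelial markers. The log2 fold change was 1.44 ± 0.203 in Fas+/+ and 1.20 ± 0.202 in Fas-/- mice (edgeR quasi-likelihood test, adjusted p = 4.37e-05 and 0.00037). Without the libraries highest in endothelial markers it was 1.34 and 0.95, called in both.

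Bid was at 1.25, 1.96, 1.43 and 1.43 CPM in naive libraries. At 3 weeks it was at 4.81, 5.75, 9.22 and 4.82 CPM in Fas+/+ and at 4.25, 4.81, 5.06 and 6.57 CPM in Fas-/- mice. Naive and bleomycin libraries did not overlap. The log2 fold change was 2.00 ± 0.245 and 1.76 ± 0.243 (edgeR quasi-likelihood test, adjusted p = 1.13e-05 and 6.73e-05).

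The inhibitor Cflar stood apart from the other 7. It was at 191, 171, 182 and 176 CPM in naive libraries, at 211, 149, 155 and 167 CPM in Fas+/+ and at 165, 171, 171 and 196 CPM in Fas-/- mice at 3 weeks. The groups overlapped widely. The log2 fold change was -0.079 ± 0.0909 in Fas+/+ and -0.034 ± 0.0909 in Fas-/- mice (edgeR quasi-likelihood test, adjusted p = 0.515 and 0.812). Without the libraries highest in endothelial markers the change in Fas+/+ mice was -0.20 and was called lower (adjusted p = 0.0154, same test), as it was without replicate 1 of the Fas+/+ mice alone. Fadd was then not called, so that 6 genes were called higher and 1 lower.

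**Figure D1:**
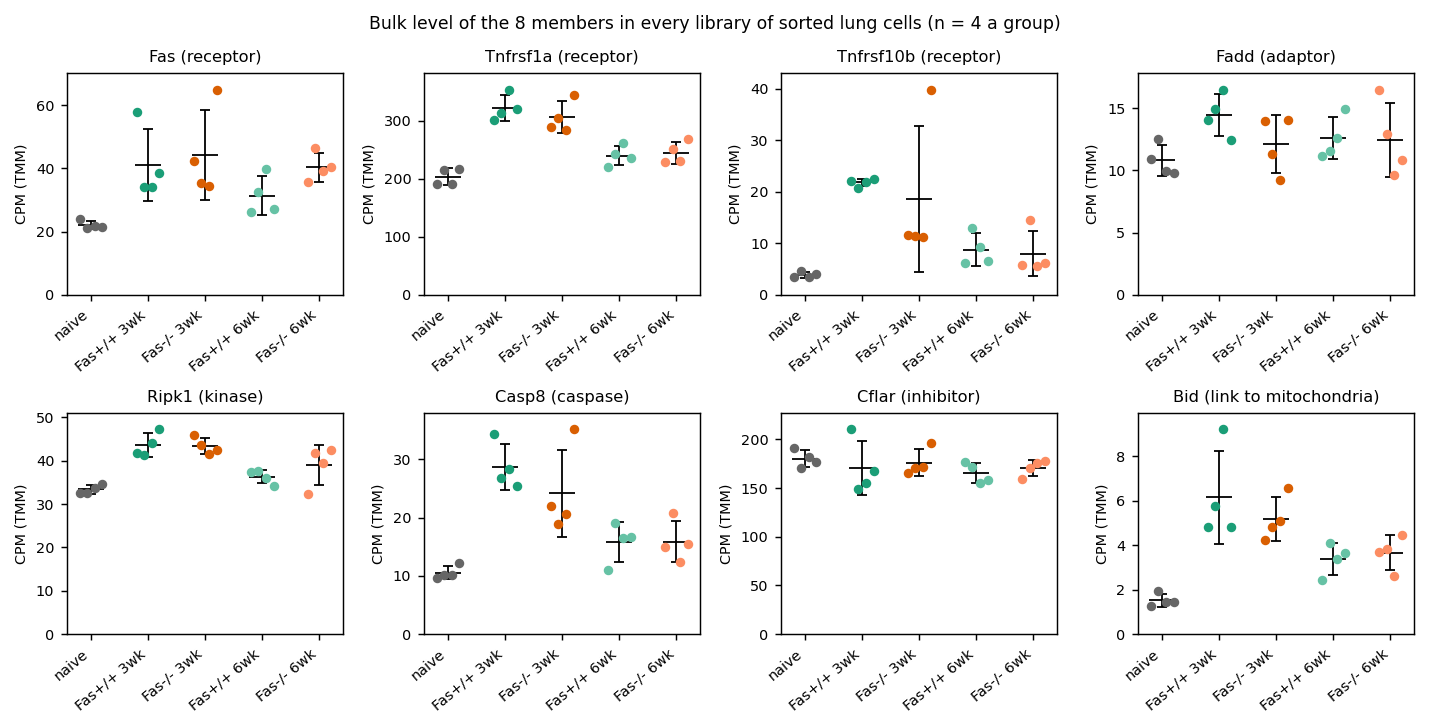
Level of each of the 8 genes in every bulk library, in CPM after TMM scaling, with a panel for each gene and a column of points for each group of 4 libraries. Horizontal lines are means and bars are SD, and every axis starts at 0. Fas, Tnfrsf1a, Tnfrsf10b, Ripk1, Casp8 and Bid lie above the naive libraries at 3 weeks without overlap, and Cflar stays between 149 and 211 CPM in all 5 groups.

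At 6 weeks most of these levels were closer to those of naive mice. In Fas+/+ mice 1 of 8 genes, Bid, was called higher than in naive mice, where 3.57% of all tested genes were called higher and 1.74% lower. In Fas-/- mice 2 of 8, Bid and Fas, were called higher, where 3.66% of tested genes were higher and 2.81% lower. The groups did not overlap for 4 and 5 of the 8 genes, against 16.6% and 16.1% of all tested genes. Bid was at 2.42, 4.08, 3.37 and 3.63 CPM in Fas+/+ and at 3.71, 3.84, 2.60 and 4.47 CPM in Fas-/- mice, every library above the naive ones, for a log2 fold change of 1.15 ± 0.243 and 1.27 ± 0.244 (edgeR quasi-likelihood test, adjusted p = 0.00886 and 0.00499). Fas was at 26.1, 32.7, 39.7 and 27.1 CPM in Fas+/+ and at 35.6, 46.6, 39.1 and 40.3 CPM in Fas-/- mice. All 8 of these libraries exceeded the naive range, but the change was called only in Fas-/- mice (0.87 ± 0.198, adjusted p = 0.014) and not in Fas+/+ mice (0.51 ± 0.198, adjusted p = 0.158, edgeR quasi-likelihood test). The difference between the genotypes was tested directly and was not called, as given below. The count of 1 in Fas+/+ mice became 2, with Casp8, without replicate 1 at 6 weeks. Without the libraries highest in endothelial markers, Tnfrsf10b (0.91), Fas (0.49) and Casp8 (0.47) were called beside Bid in Fas+/+ mice, and Tnfrsf10b (0.57) beside Bid and Fas in Fas-/- mice.

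From 3 to 6 weeks in Fas+/+ mice, 5 of 8 genes were called lower and 0 higher, with 10.9% of all tested genes lower and 12% higher. These were Tnfrsf10b (-1.31 ± 0.392 on the log2 scale, adjusted p = 0.0223), Casp8 (-0.86 ± 0.200, adjusted p = 0.00509), Bid (-0.85 ± 0.233, adjusted p = 0.0135), Tnfrsf1a (-0.42 ± 0.0804, adjusted p = 0.00137) and Ripk1 (-0.26 ± 0.0739, adjusted p = 0.0159; edgeR quasi-likelihood test). For each of the 5, no library at 6 weeks reached the lowest library at 3 weeks, where 23.5% of all tested genes did not overlap in either direction. Fas went the same way by -0.39 ± 0.197 but was not called (adjusted p = 0.16), and Fadd and Cflar were at -0.20 and -0.043. The count of 5 dropped to 3 when replicate 1 or replicate 4 of the 6-week Fas+/+ libraries was left out. Bid was also not called without replicate 3 at 3 weeks, and Ripk1 not without replicate 4 at 3 weeks or replicate 3 at 6 weeks. In Fas-/- mice 1 of 8 was called lower at 6 weeks than at 3 weeks, Tnfrsf1a (-0.32 ± 0.0803, adjusted p = 0.0206), where 4.54% of tested genes were lower and 4.48% higher. Tnfrsf10b was at -1.21 ± 0.394 and Casp8 at -0.60 ± 0.200 there, with adjusted p = 0.0626 and 0.0656 in the same edgeR test. The count in Fas-/- mice was 0 without replicate 2 or 4 at 3 weeks or replicate 1 or 3 at 6 weeks, and 3 without replicate 2 at 6 weeks.

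Fas-/- and Fas+/+ mice were compared within each week. Of the 8 genes, 0 were called at 3 weeks and 0 at 6 weeks by edgeR and by DESeq2, 0 had an unadjusted p under 0.05 in edgeR, and 0.171% and 0.0507% of all tested genes were called by edgeR. For Fas itself, counted over the whole gene, the libraries at 3 weeks listed above overlapped throughout, and at 6 weeks 2 of the 4 Fas-/- libraries lay above the highest Fas+/+ library and the other 2 below it. The whole-gene log2 difference was 0.11 ± 0.196 at 3 weeks and 0.36 ± 0.197 at 6 weeks, higher in Fas-/- mice at both times (edgeR quasi-likelihood test, adjusted p = 0.91 and 0.719). Over the other 7 genes it lay between -0.25 and 0.045 at 3 weeks and between -0.13 and 0.12 at 6 weeks. Tnfrsf10b moved with the libraries used: at 3 weeks it was at -0.24 ± 0.383 with all libraries, at -0.92 without Fas-/- replicate 4 alone (not called, adjusted p = 0.0821) and at -0.93 without the libraries highest in endothelial markers, where it was called lower in Fas-/- mice (adjusted p = 0.00122, edgeR quasi-likelihood test). In the 3 libraries a group that remained, the summed endothelial markers did not overlap, at 2854 to 3708 CPM in Fas+/+ and 705 to 1259 CPM in Fas-/- mice, and their part in the difference was not tested. With all libraries, 9 of 9 endothelial markers were lower in Fas-/- mice by direction and 0 of 9 were called. The genotype-by-time term, which tests whether the difference between genotypes changes from 3 to 6 weeks, was called for 0 of 8 genes by edgeR and by DESeq2 (0 at an unadjusted p under 0.05 in edgeR), and for 0.00634% of all tested genes.

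Levels of several of these genes followed the endothelial markers from library to library. Over the 20 bulk libraries, Pearson's r between log2 CPM of the gene and the log2 summed endothelial level was 0.927 for Tnfrsf10b, 0.882 for Casp8, 0.771 for Tnfrsf1a, 0.715 for Fas, 0.705 for Bid, 0.656 for Ripk1, 0.444 for Fadd and 0.115 for Cflar. These values describe libraries that also share their group, since bleomycin groups are high in both measures. Among the 8 genes themselves, Casp8 went most closely with Tnfrsf10b (r = 0.958) and Bid with Tnfrsf1a (r = 0.926), and Cflar went with none of them (r between -0.359 and 0.223). The 5 genes whose log2 CPM was most like that of Fas over the 20 libraries were H2-T23 (r = 0.921), H2-D1 (0.908), Map3k8 (0.895), Bmi1 (0.889) and Mgat1 (0.887). H2-T23 and H2-D1 encode class I major histocompatibility proteins.

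**Figure D2:**
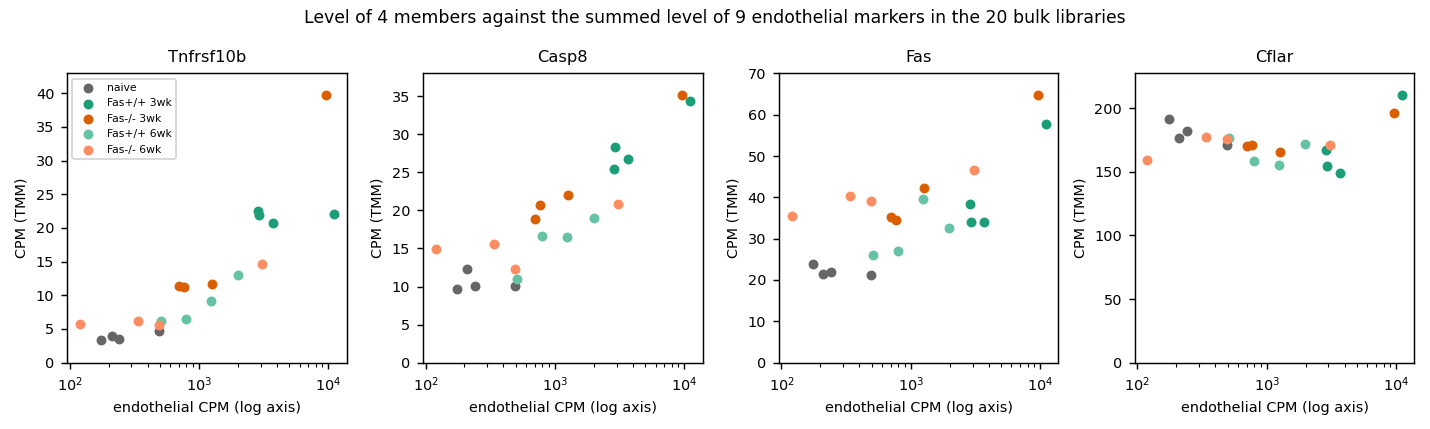
Level of Tnfrsf10b, Casp8, Fas and Cflar in CPM (TMM) in the 20 bulk libraries, against the summed CPM of 9 endothelial markers on a log axis, with a point for each library colored by group. Tnfrsf10b and Casp8 climb with the endothelial sum up to the libraries at 9658 and 11057 CPM at the right, and Cflar shows little slope. The leftmost library, replicate 1 of the Fas-/- group at 6 weeks, is at 120 CPM of endothelial markers. Its Casp8 (14.9 CPM), Tnfrsf10b (5.69 CPM) and Fas (35.6 CPM) lie above all naive libraries.

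Of the 59 other genes of the pathway that were listed, 55 could be tested, and Fasl, Tnf, Lta and Mmp7 could not. At 3 weeks against naive, the Fas+/+ comparison called 26 of 55 higher and 6 lower (median log2 fold change 0.24), beside 22.1% and 19.2% of all tested genes, and the Fas-/- comparison 23 and 5 (median 0.33), beside 17.2% and 14.8%. At 6 weeks the counts dropped to 5 higher and 1 lower with Fas+/+ (3.57% and 1.74% of all tested genes) and to 5 and 0 with Fas-/- (3.66% and 2.81%). From 3 to 6 weeks, 17 were called lower and 4 higher with Fas+/+ (10.9% and 12% of all tested genes), and 8 and 0 with Fas-/- (4.54% and 4.48%). Between genotypes edgeR called 0 of 55 at either week, with 5 and 3 at an unadjusted p under 0.05. The ligands were unequal: Fasl, which encodes Fas ligand, stayed between 0 and 0.113 CPM in the 20 libraries and Tnf between 0 and 0.300 CPM, while Tnfsf10, the gene of TRAIL, was at 6.91 ± 3.54 CPM in naive and 109.9 ± 83.8 CPM in Fas+/+ mice at 3 weeks. Its log2 fold change was 3.99 ± 0.989 in Fas+/+ and 3.44 ± 0.968 in Fas-/- mice (edgeR quasi-likelihood test, adjusted p = 0.00392 and 0.0122). The 3 decoy receptors Tnfrsf11b, Tnfrsf22 and Tnfrsf23, which bind TRAIL without a working death domain, were called higher at 3 weeks in both genotypes, 3 of 3, with log2 fold changes in Fas+/+ mice of 2.25 ± 0.464, 1.46 ± 0.345 and 2.80 ± 0.529.

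Genes of necroptosis, a form of death that runs through Ripk1 when caspase-8 is not active, were called higher at 3 weeks in both genotypes, 3 of 3. Ripk3, the kinase that Ripk1 engages, was at 2.27 ± 0.540 CPM in naive and 15.8 ± 4.77 CPM in Fas+/+ mice at 3 weeks (log2 fold change 2.79 ± 0.283), and Mlkl, which encodes the protein that breaches the membrane, was at 3.19 ± 0.721 and 12.1 ± 1.37 CPM (1.91 ± 0.188). Both were called in both genotypes at 3 weeks (edgeR quasi-likelihood test), where neither group overlapped with naive mice. Mlkl was also called in both at 6 weeks, when its level was 7.07 ± 1.40 CPM with Fas+/+ and 6.67 ± 1.38 CPM with Fas-/-. Of 8 genes of the mitochondrial arm, 4 were called higher at 3 weeks in both genotypes: Bax (0.72 ± 0.0793 in Fas+/+ mice), Bak1 (0.96 ± 0.158), Apaf1 (0.94 ± 0.105) and Cycs (0.46 ± 0.104). Diablo was called lower in Fas+/+ mice (-0.12 ± 0.0471, adjusted p = 0.0475, edgeR quasi-likelihood test) and the remaining 3 were not called in either. Ptpn13, a phosphatase known to bind the tail of Fas and restrain it, was called lower in both (-0.54 ± 0.120 and -0.49 ± 0.120), and Adam10, a surface protease, higher (0.56 ± 0.0677 and 0.37 ± 0.0676). Ltbr, which encodes the lymphotoxin receptor, was called higher in both as well (0.42 ± 0.0661 and 0.40 ± 0.066).

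Because the levels of Cflar and Casp8 went apart, their counts were set against each other within each library. The ratio of Cflar to Casp8 counts was 19.7, 16.9, 17.98 and 14.3 in naive libraries. At 3 weeks it was 6.13, 5.58, 5.46 and 6.59 in Fas+/+ and 7.5, 9.07, 8.27 and 5.58 in Fas-/- mice. All 8 libraries at 3 weeks lay below all naive libraries. At 6 weeks it was 16.1, 9.01, 9.41 and 9.50 in Fas+/+ and 10.7, 8.20, 14.3 and 11.4 in Fas-/- mice. Replicate 1 of the Fas+/+ libraries lay within the naive range and replicate 2 of the Fas-/- libraries within the 3-week range of its genotype, and the other 6 lay between those ranges. The group means were 17.2 ± 2.25 in naive, 5.94 ± 0.524 and 7.60 ± 1.497 at 3 weeks, and 11 ± 3.40 and 11.2 ± 2.51 at 6 weeks (Fas+/+ and Fas-/-, SD, n = 4). The ratio is not per length and is compared only between libraries.

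Single-cell RNA-seq showed which cells held these transcripts. The 5 matrices held 13900 barcodes, of which 12059 cells were kept: 603 naive, 2664 and 2608 at 3 weeks and 3240 and 2944 at 6 weeks (Fas+/+ and Fas-/-). The median was 5768 to 8896 unique molecular identifiers (UMIs) a cell. The libraries share barcodes: 1502 of the kept cells, 12.5%, carry a barcode that is also found in another library, from 5.99% and 6.49% of cells in the Fas+/+ libraries to 14.1% and 14.3% in the Fas-/- libraries and 344 of 603 (57.0%) in the naive library. The naive library shared 88, 250, 119 and 249 barcodes with the other 4, and its copy held a median of 23.2, 17.2, 13.5 and 10.7 times as many UMIs as the other copy. With the 959 smaller copies left out, no Fas ratio left its counting interval and no level given here moved by more than its SD between libraries. There is 1 library for a condition, so that differences between conditions have no replicate check, and the intervals given cover counting error only.

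Clustering without the 8 genes, the listed pathway genes and the markers gave 24 clusters, of which 21 were named from markers and merged into 13 classes, each called "-like". The largest cluster, 1584 cells led by Clec11a, Tmem35a and Mmp3, was not far enough above the other cells in any marker list to be named (7 of 10 lipofibroblast markers were higher) and is called the Clec11a cluster. The 545 erythroid-like cells, led by globin genes, are given as a reference for background, since they also hold 848 ± 475 UMI CPM of the fibroblast gene Col1a1 (SD over 4 libraries). A level in UMI CPM is the gene's share of all UMIs in the cells of a class and library, on the same scale as CPM. Fas was at 41.4 ± 14.8 UMI CPM in the erythroid-like cells. These cells held a median of 1278 UMIs, against 11767 in the Clec11a cluster. A level in them is thus a share of few UMIs and sets no floor for classes with more UMIs a cell.

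Fas was highest in endothelial-like cells in each of the 4 libraries with enough of them. It was at 199 UMI CPM in Fas+/+ and 192 in Fas-/- cells at 3 weeks and at 258 and 240 at 6 weeks, a mean of 222 ± 31.7. An unnamed cluster led by Slc6a2, in which all 9 endothelial markers were also higher, was at 224 in its 33 cells of the Fas+/+ library at 6 weeks. Among fibroblasts the inflammatory class, marked by Saa3 and Lcn2, had 76.0 ± 22.1 UMI CPM (4 libraries), Hhip myofibroblast-like cells 70.2 ± 9.07, the Clec11a cluster 63.5 ± 17.9, lipofibroblast-like cells 62.1 ± 12.7, Col14a1 fibroblast-like cells 53.4 ± 12.4 (5 libraries each) and profibrotic fibroblast-like cells, which carry Cthrc1 and Spp1, 45.9 ± 14.4 (4 libraries). Neighbors in this order differed by less than their spread between libraries, and the last 2 were within the spread of the erythroid-like cells. Mesothelial-like cells (33.6 ± 8.14) and pericyte-like cells (24.5 ± 11.6) were at or below the level in erythroid-like cells, and lymphatic endothelial-like cells were at 7.02 ± 2.07 (2 libraries, 5 UMIs in all). Thinned to 3000 UMIs a cell, 44.1% to 54.2% of endothelial-like cells held a Fas UMI (56.7% unthinned, mean of the 4 libraries), against 0% to 13.5% of erythroid-like cells (11.01% unthinned), of which 22 to 44 a library were deep enough. The 0 of 22 allows a share of up to 13.6%. The median depth was 3314.5 to 5133 UMIs in endothelial-like and 825.5 to 1514.5 in erythroid-like cells of those libraries. The same thinned share in the Clec11a cluster was lowest in the Fas-/- library at 3 weeks, at 8.73% (21.5% unthinned). At 6 weeks it was 16.5% to 20.8% (61.0% and 60.9% unthinned), which is another week and does not compare genotypes at 3 weeks. The unthinned shares are not at like depth. The median in this cluster was 7359.5 UMIs in the Fas-/- and 12697.5 in the Fas+/+ library at 3 weeks. At 6 weeks it was 16580 (Fas+/+) and 14449 (Fas-/-).

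The other receptors were spread differently. Tnfrsf1a was at 275 ± 67.3 UMI CPM in endothelial-like, 232 ± 61.9 in pericyte-like and 204 ± 43.5 in inflammatory fibroblast-like cells, 147 ± 41.2 in profibrotic fibroblast-like cells and 44.1 ± 12.3 in epithelial-like cells. Erythroid-like cells were at 133 ± 24.96, so that the profibrotic class was within their spread. Tnfrsf10b was the most uneven member. It was at 38.9 ± 7.94 UMI CPM in lymphatic endothelial-like and 35.1 ± 10.3 in endothelial-like cells, at 12.7 ± 2.33 in mesothelial-like cells and at 7.73 ± 4.06 in erythroid-like cells. In fibroblasts it ran from 1.35 ± 1.02 in lipofibroblast-like cells to 4.12 ± 1.11 in the Clec11a cluster. These levels were below that in erythroid-like cells, and whether they exceeded background was not tested.

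Of the genes inside the cell, Casp8 was at 77.8 ± 16.5 UMI CPM in endothelial-like cells, at 101.95 in the Slc6a2 cluster (33 cells, 35 UMIs) and at 59.6 ± 5.73 in lymphatic endothelial-like cells. It was at 31.9 ± 5.84 in mesothelial-like and 23.2 ± 5.82 in profibrotic fibroblast-like cells. It was at 19.9 ± 9.05 in erythroid-like cells and lowest among the fibroblast classes in lipofibroblast-like cells, at 8.67 ± 1.93, in all 5 libraries between 6.64 and 11.2. Cflar differed little among fibroblasts, between 92.6 and 105 on average in the 5 fibroblast classes and the Clec11a cluster. It was at 183 ± 17.5 in endothelial-like, 89.7 ± 12.7 in pericyte-like, 74.0 ± 7.45 in mesothelial-like and 57.0 ± 15.4 in erythroid-like cells. Ripk1 was at 49.1 ± 10.6 in endothelial-like cells and between 26.8 and 37.9 in the fibroblast classes and the Clec11a cluster, around the 28.7 ± 7.84 of erythroid-like cells. Fadd was at 14.1 ± 3.57 in endothelial-like cells and at 6.26 to 9.68 in the fibroblast classes, and Bid at 7.42 ± 3.498 and 1.67 to 6.37, where erythroid-like cells were at 4.58 ± 1.64 and 4.38 ± 3.58. Bid in profibrotic fibroblast-like cells was at 11.8 and 8.88 UMI CPM in the 6-week libraries and at 2.67 and 2.10 in the 3-week libraries (Fas+/+ and Fas-/-), the latter from 5 and 4 UMIs.

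**Figure D3:**
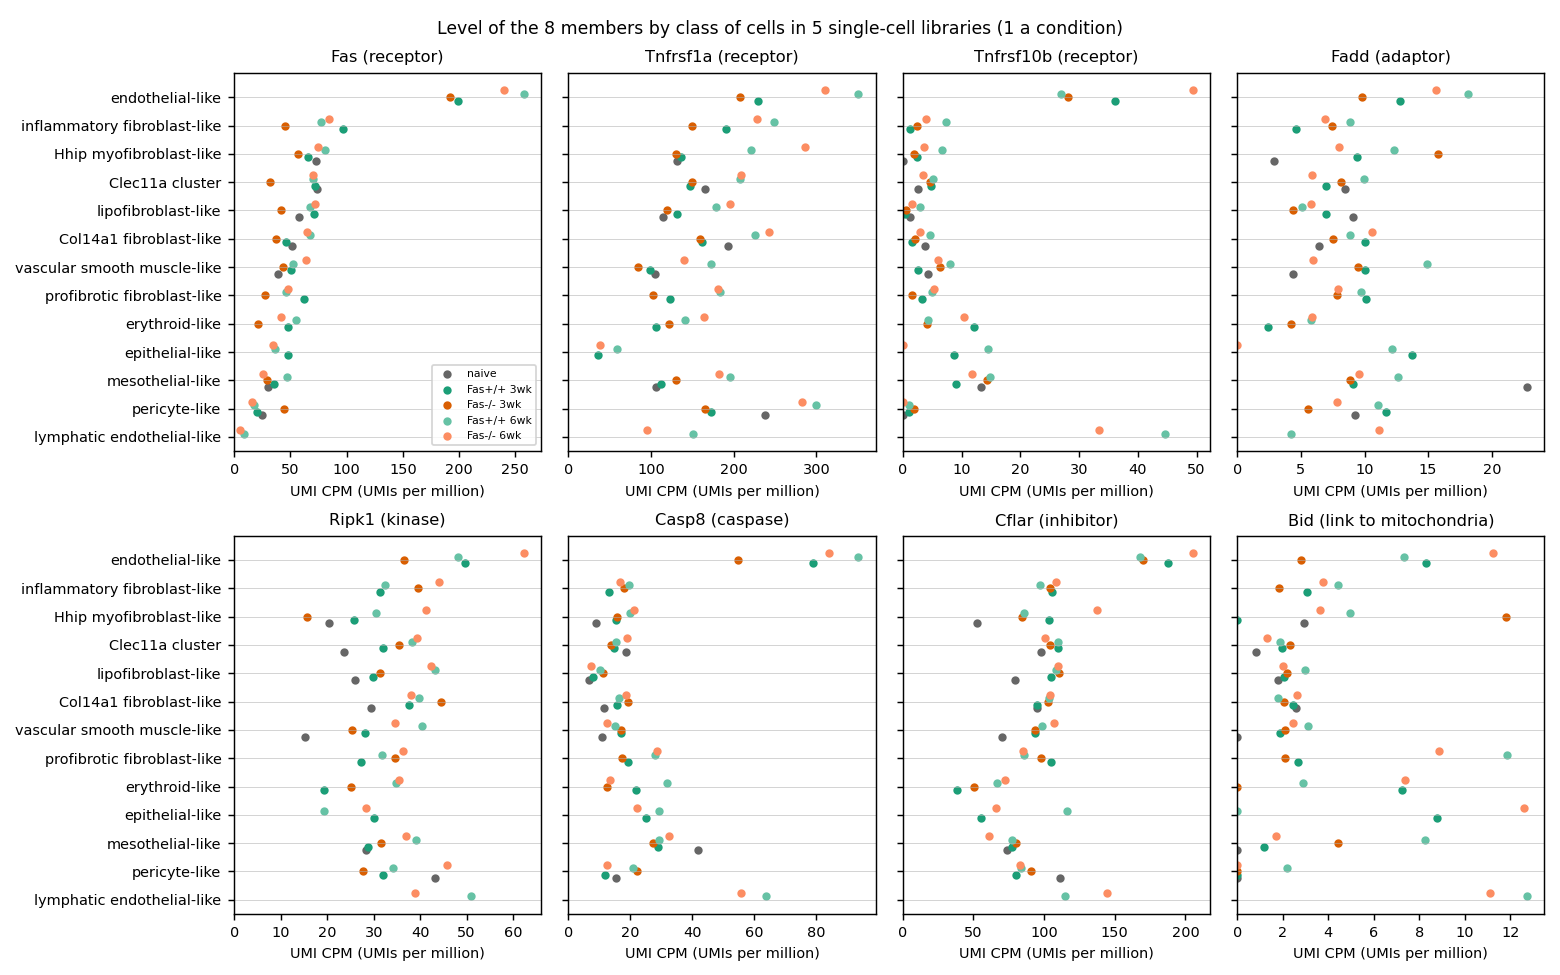
Level of each of the 8 genes by class of cells in UMI CPM, with a panel for each gene, a row for the Clec11a cluster and each named class but the platelet-like cells, and a point for each single-cell library that held at least 20 cells of the class. Among the classes plotted, endothelial-like cells lead for Fas (192 to 258) and Casp8 (54.7 to 93.5), Tnfrsf10b is highest in endothelial-like and lymphatic endothelial-like cells, and Cflar differs little between fibroblast classes.

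Endothelial-like cells were 1826 of the 12059 cells (15.1%) and held 8.64% of all UMIs. They held 28.8% of the Fas UMIs, 30.6% of Casp8, 38.1% of Tnfrsf10b, 16.2% of Bid, 15.9% of Fadd, 14.8% of Tnfrsf1a, 14.5% of Cflar and 11.7% of Ripk1. Most of them, 1151, came from the Fas+/+ library at 6 weeks, where they were 35.5% of cells and held 51.3% of Fas and 51.2% of Casp8 UMIs. In the other libraries they were 1.49% to 9.01% of cells. Values over all cells of that library, such as 99.96 Fas UMI CPM against 66.8 in the Fas-/- library at 6 weeks, go with its share of endothelial-like cells. Within endothelial-like cells the values were 258 and 240.

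Within fibroblast classes Fas was lower in the Fas-/- than in the Fas+/+ library at 3 weeks. In the Clec11a cluster it was at 31.7 against 71.6 UMI CPM (124 and 402 UMIs), a ratio of 0.442 (95% counting interval 0.359 to 0.542), with 0.967% of the 11374 genes with at least 20 UMIs there at or below that ratio. The ratio was 0.437 (0.309 to 0.611) in profibrotic fibroblast-like cells, 0.465 (0.353 to 0.606) in inflammatory fibroblast-like cells and 0.589 (0.479 to 0.721) in lipofibroblast-like cells, with 0.901%, 1.32% and 2.46% of genes at or below. Intervals that include 1 were found in Col14a1 fibroblast-like (0.815, 0.587 to 1.12), Hhip myofibroblast-like (0.869, 0.535 to 1.38) and endothelial-like cells (0.967, 0.781 to 1.19). In pericyte-like cells, where Fas was below its level in erythroid-like cells, the ratio was 2.19 (1.15 to 4.23) from 24 and 19 UMIs. In erythroid-like cells it was 0.435 (0.127 to 1.19) from 5 and 20 UMIs. The Fas levels of profibrotic and Col14a1 fibroblast-like cells, given above, were also within the spread of erythroid-like cells. Col1a1, whose promoter drives the Cre, was at 7330 UMI CPM in profibrotic fibroblast-like cells (mean of the 4 libraries after bleomycin). In endothelial-like cells it was at 225, which is below the level in erythroid-like cells. Its levels in the other fibroblast classes, among them Col14a1 fibroblast-like and Hhip myofibroblast-like cells, were not set beside these ratios. No pattern over the classes is thus shown, and the part of Col1a1 in the ratios was not tested.

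At 6 weeks this difference was not seen in the same classes. The ratio was 0.999 (0.855 to 1.17) in the Clec11a cluster, 1.04 (0.897 to 1.21) in profibrotic, 1.09 (0.925 to 1.27) in inflammatory and 1.07 (0.895 to 1.28) in lipofibroblast-like cells, and 0.930 (0.817 to 1.057) in endothelial-like cells. It was 0.553 (0.377 to 0.8002) in mesothelial-like cells, from 46 and 85 UMIs. Compared with the naive library, Fas in the Clec11a cluster was at a ratio of 0.973 (0.770 to 1.24) in Fas+/+ and 0.431 (0.325 to 0.573) in Fas-/- cells at 3 weeks, and at 0.958 and 0.956 at 6 weeks. The bulk libraries of the same conditions, which count reads along the whole gene, gave no lower Fas level in Fas-/- mice at 3 weeks. The assays do not count the same part of Fas transcripts. The paper looked at exon 9 by itself in its single cells. It reports fewer cells with that exon in Fas-/- mice at both weeks, and a similar deletion in every cluster. Those values were not recomputed here.

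The other 7 genes did not share the lower level at 3 weeks. In the Clec11a cluster the ratio was 0.948 (0.834 to 1.076) for Cflar, 0.944 (0.657 to 1.35) for Casp8, 1.11 (0.881 to 1.39) for Ripk1 and 1.01 (0.909 to 1.13) for Tnfrsf1a. In profibrotic fibroblast-like cells Cflar was at 0.933 (0.760 to 1.15) and Casp8 at 0.901 (0.544 to 1.49). In the 4 classes where Fas was lower, 1 interval of these 7 genes lay below 1, that of Tnfrsf1a in inflammatory fibroblast-like cells (0.783, 0.669 to 0.915). Fadd, Bid and Tnfrsf10b had 2 to 39 UMIs in each of these classes and libraries, and their intervals were wide and included 1.

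**Figure D4:**
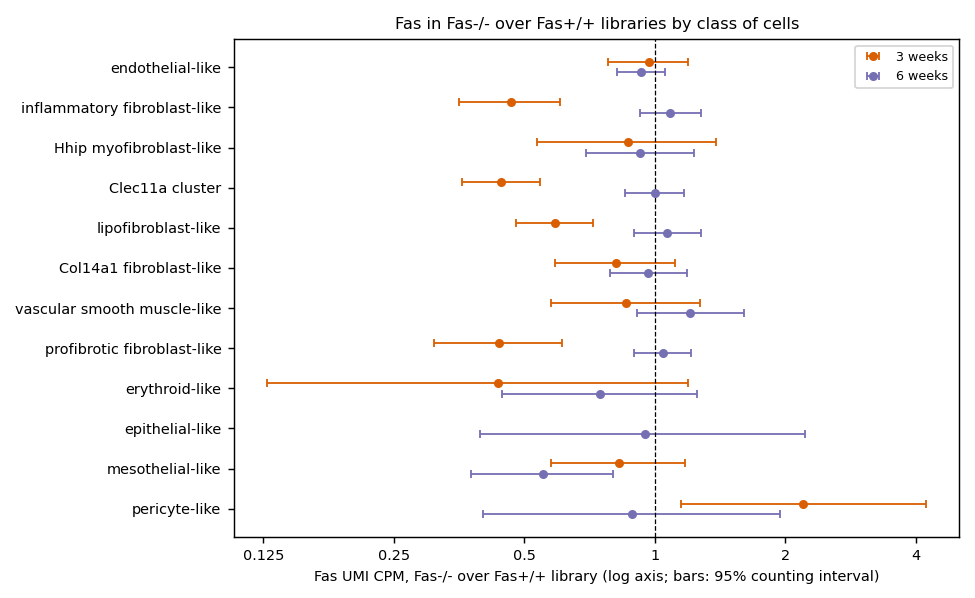
Ratio of Fas UMI CPM in the Fas-/- over the Fas+/+ single-cell library, by class of cells, on a log axis, at 3 weeks and at 6 weeks. Bars are 95% counting intervals from 1 library a condition. At 3 weeks 4 fibroblast classes lie between 0.437 and 0.589 with intervals below 1, while at 6 weeks the same classes lie between 0.999 and 1.09.

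Tnfrsf1a, among other genes, differed in order between the assays. Over all cells it was at 145 UMI CPM in the naive library, 143 and 134 at 3 weeks and 232 and 206 at 6 weeks (Fas+/+ and Fas-/-), and the 6-week libraries were the higher ones within the Clec11a cluster too (208 and 208 against 147 and 149). In bulk, Tnfrsf1a was higher at 3 weeks than at 6 weeks, as given above. Casp8, Bid, Tnfrsf10b and Ripk1, also called lower at 6 weeks in Fas+/+ bulk libraries, were likewise higher at 6 weeks over all single cells. This held in both genotypes. Casp8 went from 512 of 26828278 UMIs at 3 weeks to 1271 of 35004216 at 6 weeks in the Fas+/+ libraries. In the Fas-/- libraries it went from 315 of 17075858 to 750 of 33668370. The part of endothelial-like cells in these differences was not tested.

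The ratio of Cflar to Casp8 UMIs, summed over the 5 libraries, also separated the classes. It was 12.05 (95% counting interval 10.2 to 14.3) in lipofibroblast-like cells, 6.60 in the Clec11a cluster, 6.31 in inflammatory, 5.99 in Col14a1 and 3.36 (3.04 to 3.72) in profibrotic fibroblast-like cells, and 1.99 (1.83 to 2.15) in endothelial-like cells. The unnamed Slc6a2 cluster was at 1.40 (0.940 to 2.10), from 63 and 45 UMIs. In lipofibroblast-like cells it lay between 9.92 and 15.1 in each of the 5 libraries, and in endothelial-like cells between 1.79 and 3.10 in 4 libraries. In profibrotic fibroblast-like cells it was 5.47 and 5.67 at 3 weeks and 3.09 and 2.96 at 6 weeks. Over all cells it was 5.84 (4.62 to 7.47) in the naive library. It was 5.37 and 5.53 there at 3 weeks, so that the fall of the bulk ratio was not seen, and 3.04 and 4.55 at 6 weeks. From naive to 3 weeks it went from 5.27 to 7.51 and 7.54 in the Clec11a cluster. It went from 12 to 13.03 and 9.92 in lipofibroblast-like cells and from 8.22 to 6.02 and 5.36 in Col14a1 fibroblast-like cells. The naive values rested on 22, 11 and 9 Casp8 UMIs in these classes, in the order given. Their 95% counting intervals were 3.32 to 8.74, 6.49 to 24.6 and 4.11 to 18.7. Every 3-week value given for these classes lay within the naive interval of its class, so no movement is shown. The summed level of lipofibroblast markers in bulk, 16343 to 20352 CPM in naive and 6224 to 10650 CPM in Fas+/+ mice at 3 weeks, moved in the same direction as the bulk ratio, and its part in that ratio was not tested.

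**Figure D5:**
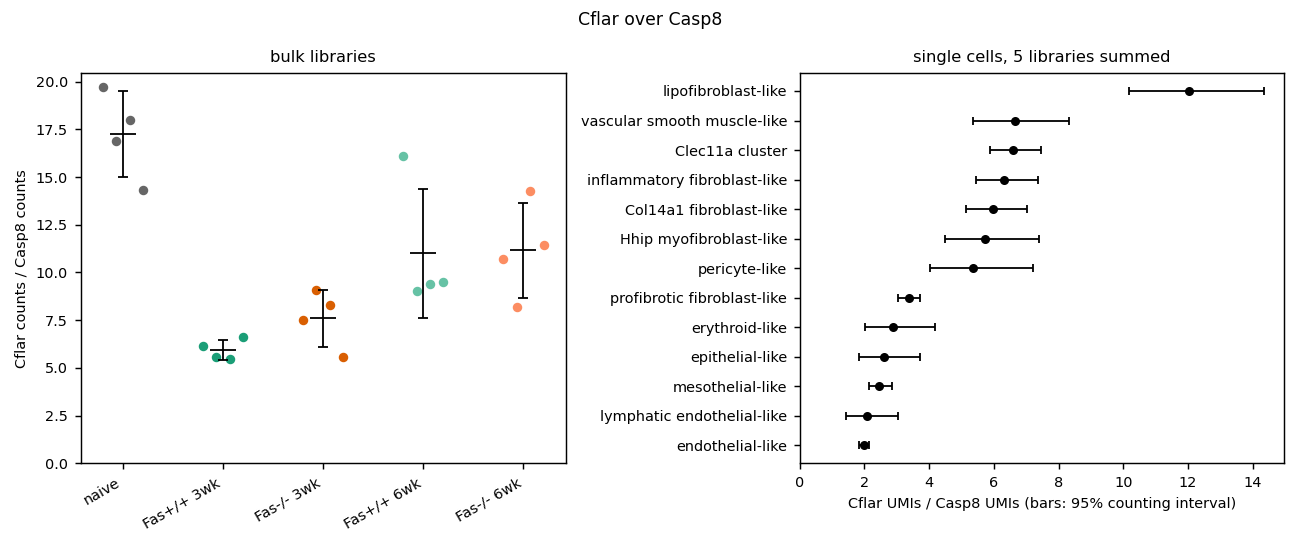
Left, the ratio of Cflar to Casp8 counts in every bulk library by group, with means and SD (n = 4). Right, the ratio of Cflar to Casp8 UMIs in the Clec11a cluster and each named class but the platelet-like cells, summed over 5 single-cell libraries, with 95% counting intervals. The bulk ratio is 14.3 to 19.7 in naive mice and 5.46 to 9.07 at 3 weeks, and the ratio by plotted class runs from 1.99 in endothelial-like to 12.05 in lipofibroblast-like cells.

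The ligand genes were as uneven in single cells. Fasl had 1 UMI, in the Fas+/+ library at 6 weeks, and Tnf had 8 there and 1 in the naive library, with 0 of both in the others. Tnfsf10 had 21 UMIs in the naive library, 540 and 160 at 3 weeks and 2200 and 364 at 6 weeks, and was at 268 ± 65.7 UMI CPM in endothelial-like cells, which held 463 of the 540 and 1943 of the 2200 UMIs in the Fas+/+ libraries. Ptpn13 was at 136 ± 20.9 UMI CPM in mesothelial-like and 57.8 ± 5.76 in pericyte-like cells, and at 10.8 to 31.4 in the fibroblast classes.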

How the data were processed

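Bulk RNA-seq (20 libraries) and droplet single-cell RNA-seq (5 libraries) of sorted Lin- lung cells were analysed. Per the labels and the study's methods, the authors aligned bulk reads with HISAT2 to GRCm38 and counted them per gene with HTSeq, and they deposited raw counts for 47729 genes. The deposited single-cell matrices hold counts of UMIs per gene and cell for 13900 barcodes. The deposited normalized bulk table was not used. Libraries were grouped by their labels. The 8 members, the pathway list and the marker lists were chosen with earlier results of these data known. Named genes were the 8 members, the pathway genes called in most comparisons with 8 listed by name, the 5 genes most like Fas, and Col1a1. Some named genes are not reported here.

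Bulk counts were fitted in R 4.3.3 with edgeR 4.0.16 (filterByExpr defaults, minimum count 10, TMM, quasi-likelihood F test over all 5 groups), with p-values adjusted by Benjamini-Hochberg over 15773 genes and calls at 0.05. Log2 CPM used a prior count of 2, and exact permutation tests were two-sided. Fits were tested on simulated data. DESeq2 1.42.0, other scaling, no filter, a replicate block, fits to 2 groups and left-out libraries were alternatives. CPM per kilobase used merged exons of the GENCODE annotation of GRCm38, which also gave the Fas sequence. No pair of replicates agreed within counting noise.

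The filter on cells asked for 200 to 7500 genes and no more than 20% mitochondrial UMIs. Kept cells were transformed and integrated in Seurat 5.3.0 with sctransform 0.4.2 (3000 features, 20 components) and clustered at resolution 0.8. Scrublet (scanpy 1.11.5) marked 46 of 12059 cells (0.381%) as doublets, too few for it to have worked, so doublets remain. Intervals are exact Poisson, conditional binomial for ratios and Clopper-Pearson for shares, at 95%; limits for a share of 0 use 3 counts.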

Additional observations from a re-analysis of the deposited data

Results flagged for a closer look

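Within groups of 4 bulk libraries, 4 values lay apart from the other 3 by Dixon's criterion, among 45 groups examined, of which chance alone would put about 1 in 20 apart. Casp8 in naive replicate 4 was at 12.3 CPM, with the others at 9.69 to 10.1 CPM. Tnfrsf10b in Fas-/- replicate 4 at 3 weeks was at 39.8 CPM, with the others at 11.3 to 11.6 CPM, and at 6 weeks its Fas-/- replicate 2 was at 14.6 CPM, with the others at 5.59 to 6.15 CPM. Both of these libraries were the highest of their groups in endothelial markers, at 9658 and 3088 CPM. The ratio of Cflar to Casp8 was 16.1 in Fas+/+ replicate 1 at 6 weeks, with the others at 9.01 to 9.50, and this library was the lowest of its group in endothelial markers, at 508 CPM.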

How the results depend on the processing

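The number of genes called among the 8 stayed within 1.5 times the reported count in 118 results of the alternatives and not in 15. The count for Fas+/+ mice at 6 weeks against naive mice (1 of 8) became 2 with DESeq2, 4 when only the compared groups were fitted and 4 without the 4 libraries highest in endothelial markers in their groups. The count lower at 6 than at 3 weeks in Fas-/- mice (1 of 8) became 3 with DESeq2, 0 when only the compared groups were fitted and 3 without those 4 libraries, which also gave 1 call in place of 0 between genotypes at 3 weeks. Without those libraries the log2 change of Cflar from 3 to 6 weeks turned to 0.058 in Fas+/+ and 0.022 in Fas-/- mice, that of Fas in Fas-/- mice to 0.042, and that of Casp8 between genotypes at 6 weeks to -0.045. The cause was not tested.

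With 1 library left out at a time, the count called lower from 3 to 6 weeks ran from 3 to 5 in Fas+/+ and from 0 to 3 in Fas-/- mice, and that for Fas+/+ mice at 6 weeks against naive from 1 to 2. Log2 changes that turned, none of them called, ran as follows. From 3 to 6 weeks Cflar ran from -0.10 to 0.076 in Fas+/+ mice, and Fadd from -0.12 to 0.16, Fas from -0.22 to 0.11 and Cflar from -0.068 to 0.020 in Fas-/- mice. Between genotypes at 3 weeks Cflar ran from -0.014 to 0.16, Bid from -0.37 to 0.015, Ripk1 from -0.035 to 0.035 and Fas from -0.12 to 0.32, and at 6 weeks Bid ran from -0.013 to 0.25, Casp8 from -0.15 to 0.11, Tnfrsf1a from -0.020 to 0.066, Tnfrsf10b from -0.60 to 0.13 and Fadd from -0.18 to 0.087.

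Replicate numbers were shared between groups, and the main fit did not pair libraries by them. Deviations from the group means correlated between -0.46 and 0.40 among libraries of the same number. Whether libraries of the same number shared a batch was not tested. With the replicate number as a block, 6 genes in place of 7 were called in Fas+/+ mice at 3 weeks and 3 in place of 2 in Fas-/- mice at 6 weeks. In single cells all 101 ratios of Fas stayed within their counting intervals, and 406 levels moved by less than 1 SD. Classes were matched by name. At resolution 0.4 the Clec11a and Slc6a2 clusters did not form, so their values were not checked at that setting. The largest cluster there, 2258 cells, was named inflammatory fibroblast-like, against 728 cells of that class at resolution 0.8. That class therefore did not hold the same cells at the 2 settings. The alternatives included leaving out the smaller copies of shared barcodes, which was chosen after seeing the data. They also included leaving out the 46 cells marked by Scrublet, which were too few to move most values. In 2 cases a level moved by more: Fadd in erythroid-like cells was at 7.01 at resolution 0.4 and Fas in lymphatic endothelial-like cells at 9.20 with at most 10% mitochondrial UMIs. Shares of cells with a UMI depend on depth, and no rule was applied to their change with thinning. Depth limits Fadd, Bid and Tnfrsf10b in single cells.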
